A study of Mus musculus with 18 samples.

Results

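A set of 10 transcription factors that have been tied to the mucous lineages of the stomach were followed from the dividing cells of the gastric gland into the surface pit cells on one side and the neck and chief cells on the other. They are the forkhead factors Foxq1, Foxa1, Foxa2 and Foxa3, the Krüppel-like factors Klf4 and Klf5, the ETS factors Elf3, Ehf and Spdef, and the SOX factor Sox9. The 10 genes were taken by name, out of 31201 gene names in the count tables, and all 10 were measured in both datasets. Klf4 and Foxa3 on the pit side, and Spdef and Sox9 on the neck side, are factors that the study itself named from these same cells, so their directions below are not independent evidence.

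The cells came from adult male C57BL/6J mice with the WT genotype, 10 weeks old, with no allele or agent that differed between groups. Dataset 1 held 491 cells of corpus and antrum gastric units on 6 plates, sorted as live cells (ToPro3-negative per the labels, while the study's methods name propidium iodide), and dataset 2 held 3993 cells of corpus units sorted as Hoechst33342-positive and ToPro3-negative on 12 plates. Each dataset had 2 biological replicates, each of 3 pooled mice per the study's reporting form and each prepared by a different operator, called tube 1 and tube 2 in dataset 1 and pools K and T in dataset 2. The labels can also be read as 3 mice in all. The spread between 2 pools thus holds both animals and handling. The groups compared were cell types within one normal tissue, found by the authors' clustering.

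The corpus is the part of the stomach that makes acid, and the antrum lies toward its outlet. In the corpus gland, dividing cells sit in a narrow zone called the isthmus. Daughter cells that move up become pre-pit and then mature pit cells, which line the surface and secrete the mucin Muc5ac. Cells that move down become mucous neck cells, which secrete Muc6. The pepsinogen-making chief cells were long held to arise from neck cells, while newer work cited by the study proposes that they renew themselves. Transcription factors of the forkhead, KLF, ETS and SOX families bind short DNA elements and switch on the secretory and barrier genes of such lineages.

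Levels are given in CPM, the UMIs (counted molecules) of a gene in the summed cells of a type in a pool as counts brought to one common library total and scaled by the trimmed mean of M values (TMM). Values stand in the order pool K and pool T, or tube 1 and tube 2. A level serves to compare types for one gene, not one gene with another, because the counts are not adjusted for transcript length or capture. Log2 fold changes are given with their standard error from edgeR's quasi-likelihood test on the sums, with Benjamini-Hochberg adjusted p-values taken over every gene in the fit, and a call needs an adjusted p under 0.05. The authors drew the clusters from these counts, members included, so a p-value between clusters in part restates the clustering.

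The type labels were checked against marker genes. In dataset 2 the 4 pit markers Gkn1, Gkn2, Muc5ac and Tff1 summed to 143859 and 154482 CPM in mature pit cells and 1083 and 1382 in neck cells, the 5 isthmus markers to 716 and 759.6 in isthmus cells against 78.5 or less in any other epithelial type, and the 3 parietal markers to 45298 and 42196 in parietal cells against 935 or less elsewhere. Muc6 separated the neck clusters from the rest, while the summed neck list, which also holds Tff2 and Cd44, was higher in pre-pit cells (20514 and 19999.6) than in neck cells (7045 and 7696). Mature pit cells were the label with the least even support between pools, since Aqp3, their defining marker, stood at 9.54 and 78.8 CPM, and the antrum pit markers Krt7 and Krt20 summed to 9.09 and 135. Their part in the mature pit results was not tested.

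Promoter sequences are shown for 4 members that moved in one direction along the pit path and for Foxa1, the one matched member with a forkhead core, so that the elements these factor families bind can be seen beside the levels. Of the 10 members 6 matched the RefSeq promoter table (GRCm38.p6, 300 bases, 250 before to 50 after the start site). Foxq1, Klf5, Ehf and Sox9 did not. Each is printed 5′ to 3′ on its own strand, the minus strand in all 5, with capitals for matches on either strand to the forkhead core TGTTTAC and the KLF element CCNCNCCC, where overlapping matches run together. The windows are Klf4 at chr4:55532426-55532725, Foxa3 at chr7:19023490-19023789, Elf3 at chr1:135258423-135258722, Spdef at chr17:27728902-27729201 and Foxa1 at chr12:57546062-57546361.
Klf4: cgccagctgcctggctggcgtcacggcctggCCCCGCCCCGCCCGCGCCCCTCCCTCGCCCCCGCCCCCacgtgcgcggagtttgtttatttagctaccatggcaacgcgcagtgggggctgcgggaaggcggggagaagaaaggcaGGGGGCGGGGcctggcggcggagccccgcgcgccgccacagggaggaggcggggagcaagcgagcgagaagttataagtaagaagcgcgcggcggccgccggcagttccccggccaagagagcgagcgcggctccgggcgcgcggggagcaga
Foxa3: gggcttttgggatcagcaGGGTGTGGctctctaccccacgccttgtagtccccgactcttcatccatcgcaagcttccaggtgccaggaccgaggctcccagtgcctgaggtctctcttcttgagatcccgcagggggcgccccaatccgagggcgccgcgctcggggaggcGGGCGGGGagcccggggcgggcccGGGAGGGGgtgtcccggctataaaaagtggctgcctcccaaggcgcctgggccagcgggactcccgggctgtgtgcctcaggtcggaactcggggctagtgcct
Elf3: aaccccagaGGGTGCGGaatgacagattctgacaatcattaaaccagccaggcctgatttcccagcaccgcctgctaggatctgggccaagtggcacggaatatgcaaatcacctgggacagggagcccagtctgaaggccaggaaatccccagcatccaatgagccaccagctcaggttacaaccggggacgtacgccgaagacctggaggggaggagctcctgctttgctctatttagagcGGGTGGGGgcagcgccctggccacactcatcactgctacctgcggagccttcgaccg
Spdef: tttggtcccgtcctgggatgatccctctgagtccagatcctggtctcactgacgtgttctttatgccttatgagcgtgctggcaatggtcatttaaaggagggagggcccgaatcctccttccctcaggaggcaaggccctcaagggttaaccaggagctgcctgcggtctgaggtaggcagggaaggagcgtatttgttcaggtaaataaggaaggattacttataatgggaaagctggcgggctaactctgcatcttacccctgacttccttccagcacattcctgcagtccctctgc
Foxa1: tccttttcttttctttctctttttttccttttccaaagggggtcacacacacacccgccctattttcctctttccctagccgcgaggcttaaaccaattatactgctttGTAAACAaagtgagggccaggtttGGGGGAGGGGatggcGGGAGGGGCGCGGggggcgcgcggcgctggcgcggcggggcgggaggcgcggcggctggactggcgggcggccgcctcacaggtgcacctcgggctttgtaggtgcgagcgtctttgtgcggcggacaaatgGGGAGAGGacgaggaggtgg
The Klf4 window held 9 matches to the KLF element, Foxa1 5, Foxa3 3 and Elf3 2, and the Spdef window held none. The element was present in 49.5% of 32851 RefSeq promoters of this length, so its presence is common. The forkhead core, present in 3.65% of promoters, was found only in the Foxa1 window among those printed. Spdef held 2 matches to the ETS core AGGAAG, which 35.4% of promoters hold, and none of the 5 windows held the SOX core ACAATGG (3.66% of promoters). A match describes letters in the window and says nothing of binding.

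Most of the 10 factors differed between pit and neck cells. With both pit types set against neck cells in dataset 2, Klf4, Foxa3 and Elf3 were higher in pit cells and Spdef, Sox9, Ehf, Klf5 and Foxa1 higher in neck cells. That makes 8 of 10 called, 3 higher and 5 lower, where 53.1% of 13894 genes tested were called, 23.9% higher and 29.2% lower. The median log2 fold change was -0.12 over the members and -0.08 over all genes tested. Klf4 carried the largest difference toward pit cells among the members, 6.81-fold or 2.77 ± 0.14 on the log2 scale (adjusted p = 2.15e-09), and Spdef the largest toward neck cells, -2.17 ± 0.08 (adjusted p = 1.92e-10). Foxq1 and Foxa2 were not called, at 0.25 ± 0.11 (adjusted p = 0.0756) and 0.19 ± 0.08 (adjusted p = 0.0564), and both passed once the pool was a block in the fit, with adjusted p = 0.0078 and 0.0278.

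**Figure D1:**
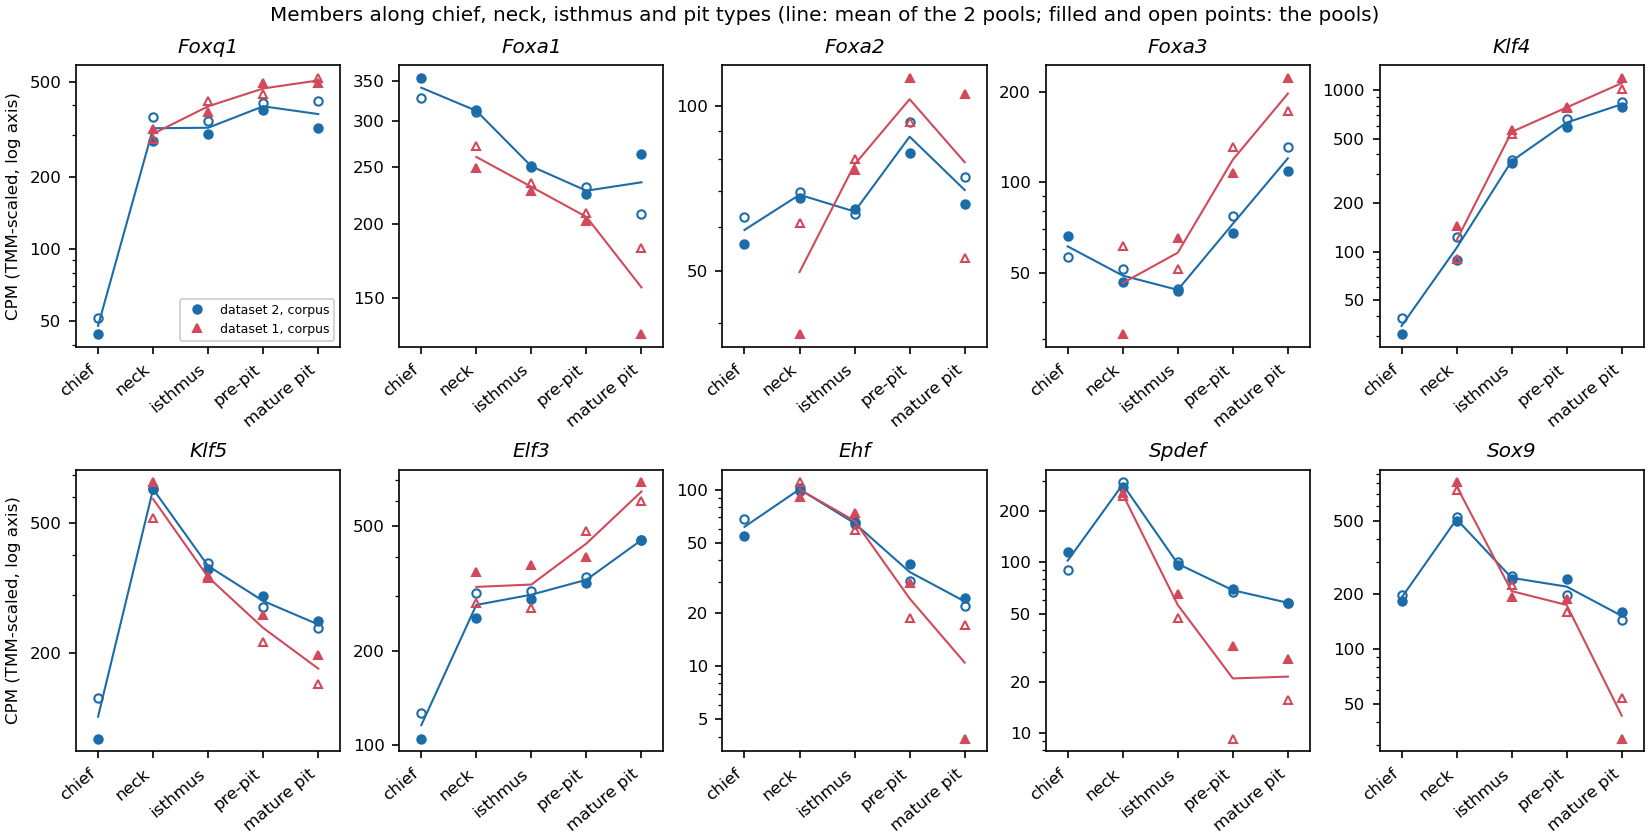
Level of each member (CPM, log axis) along chief, neck, isthmus, pre-pit and mature pit cells, with a line through the mean of the pools. A filled and an open point mark the pools of dataset 2 (circles) and of the neck, isthmus-like and corpus pit types of dataset 1 (triangles). Klf4 climbs from 30.7 and 38.5 CPM in chief cells to 789 and 842 in mature pit cells of dataset 2, while Spdef, Sox9, Klf5 and Ehf peak in neck cells.

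Klf4 (chr4:55527139-55532528, minus strand, GRCm39) encodes a zinc finger factor known for the terminal differentiation of surface epithelia. In dataset 2 it stood at 354 and 371 CPM in isthmus cells, 593 and 663 in pre-pit and 789 and 842 in mature pit cells. On the other side it stood at 88.1 and 122 in neck and 30.7 and 38.5 in chief cells. The 5 types did not overlap between pools anywhere along this order. The step from isthmus to pre-pit was 0.79 ± 0.14 (adjusted p = 0.000703), and that from isthmus to neck was -1.79 ± 0.14 (adjusted p = 2.16e-07). The last step on the pit side, mature pit against pre-pit, was 0.38 ± 0.14 (adjusted p = 0.104) and passed with the pool as a block (adjusted p = 0.00764). Klf4 can also respond to tissue dissociation, and 15 genes of that response (Fos, Jun, Egr1, Atf3 and others) summed to 1392 and 1959 CPM in pre-pit, 2053 and 2226 in mature pit, 4922 and 8175 in isthmus and 5602 and 14237 in neck cells. The sum was lower in both pit types, where Klf4 was highest, than in any other epithelial type of either pool. Its part in the Klf4 result was not tested.

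Foxa3 (chr7:18747209-18757471, minus strand), a forkhead factor of gut endoderm, rose at both steps of the pit path. It stood at 43.5 and 44.0 CPM in isthmus, 67.9 and 77.4 in pre-pit and 109 and 131 in mature pit cells, so each type lay above the one before it in both pools. The steps were 0.73 ± 0.11 (adjusted p = 0.000208) and 0.73 ± 0.12 (adjusted p = 0.00138), and Foxa3 was the only member called at both. In neck and chief cells it stood at 46.4 and 51.2 and at 66.0 and 56.2, and neither neck against isthmus (0.16 ± 0.10, adjusted p = 0.214) nor chief against neck (0.31 ± 0.13, adjusted p = 0.0727) was called.

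Elf3 (chr1:135181306-135188999, minus strand), an epithelium-specific ETS factor, was called at the second pit step and not at the first. Its levels in isthmus and pre-pit cells were 293 and 312 and 329 and 345 CPM, a difference of 0.16 ± 0.10 (adjusted p = 0.281). On plate sums this first step was called (0.17 ± 0.06, adjusted p = 0.0115), and the sizes of the steps were not tested against each other. Mature pit cells reached 451 and 452 CPM, 0.42 ± 0.10 (adjusted p = 0.0207) above pre-pit cells. Elf3 overlaps the lncRNA gene Gm26642 on the other strand, and since the sources used here do not state whether counting used strand, reads of the 2 genes cannot be told apart.

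Foxa2 (chr2:147884797-147889005, minus strand), a pioneer forkhead factor of endoderm, was highest of the pit path in pre-pit cells. It stood at 64.9 and 63.4 CPM in isthmus, 82.2 and 93.7 in pre-pit and 66.3 and 74.1 in mature pit cells. The first step was called (0.46 ± 0.09, adjusted p = 0.00185). The second, -0.32 ± 0.10 (adjusted p = 0.07), was called with the pool as a block (adjusted p = 0.0295).

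Foxq1 (chr13:31740117-31744959, plus strand), a forkhead factor known for mucin production in surface cells of the stomach, differed little among the mucous types. It stood at 302 and 342 CPM in isthmus, 383 and 409.6 in pre-pit, 320.3 and 415 in mature pit and 285 and 357 in neck cells, and within each pool both pit types lay above isthmus and neck cells. Pre-pit against isthmus was 0.30 ± 0.13 (adjusted p = 0.105), called with the pool as a block (adjusted p = 0.0112), and neck against isthmus was -0.01 ± 0.13 (adjusted p = 0.967). Foxq1 overlaps the lncRNA gene 1700018A04Rik on the other strand, with the same limit as for Elf3.

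Spdef (chr17:27933326-27947929, minus strand), an ETS factor known for the maturation of mucous secretory cells, had the sharpest peak in neck cells. It stood at 95.9 and 99.9 CPM in isthmus and 276 and 293 in neck cells, 2.90-fold higher (1.54 ± 0.09, adjusted p = 1.04e-08 on the log2 scale). On the pit side it stood at 70.0 and 67.3 in pre-pit and 58.1 and 57.7 in mature pit cells. The fall from isthmus to pre-pit was called (-0.51 ± 0.10, adjusted p = 0.00143), and the second step was not (-0.24 ± 0.12, adjusted p = 0.223).

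Sox9 (chr11:112673009-112678586, plus strand), a factor of progenitor and ductal cells in several gut organs, was at 240.1 and 249 CPM in isthmus, 498 and 522 in neck, 242 and 196 in pre-pit and 159.9 and 143 in mature pit cells. Both neck pools lay above every other epithelial type. Neck against isthmus was 1.06 ± 0.10 (adjusted p = 1.21e-06). At the first pit step Sox9 was not called (-0.16 ± 0.10, adjusted p = 0.262), with 0.01 in pool K and -0.34 in pool T, and it fell at the second (-0.53 ± 0.11, adjusted p = 0.00677). It overlaps the lncRNA gene BC006965 on the other strand, again with strand not stated.

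Klf5 (chr14:99536086-99552473, plus strand), a zinc finger factor of proliferating epithelium, ran against its relative Klf4 from neck to mature pit cells, though both were lower in chief than in neck cells. It stood at 634 and 634 CPM in neck, 362 and 376 in isthmus, 299.9 and 277 in pre-pit and 250.3 and 239 in mature pit cells, an order with no overlap between pools. Neck against isthmus was 0.78 ± 0.10 (adjusted p = 3.16e-05) and pre-pit against isthmus -0.36 ± 0.10 (adjusted p = 0.0216). The second pit step was -0.24 ± 0.11 (adjusted p = 0.2).

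Ehf (chr2:103093778-103133623, minus strand), an epithelial ETS factor, followed the same order, with 99.0 and 102 CPM in neck, 65.7 and 63.7 in isthmus, 38.0 and 30.5 in pre-pit and 24.5 and 22.1 in mature pit cells. It rose by 0.64 ± 0.10 from isthmus to neck (adjusted p = 0.000181) and its change from isthmus to pre-pit was -0.92 ± 0.12 (adjusted p = 8.25e-05), the largest fall of any member there. Mature pit against pre-pit was -0.55 ± 0.17 (adjusted p = 0.0612), called with the pool as a block (adjusted p = 0.0417).

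Foxa1 (chr12:57587414-57593702, minus strand), a pioneer forkhead factor, was called at 1 step between mucous types, neck against isthmus, at 0.31 ± 0.10 (adjusted p = 0.0155). Its levels were 313 and 311 CPM in neck, 252 and 250.2 in isthmus, 225 and 231 in pre-pit and 263 and 208 in mature pit cells. The spread between pools was widest in the mature pit cells.

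By step, the members called were 6 of 10 for pre-pit against isthmus (3 higher and 3 lower, beside 27.8% of all genes, 12.3% higher and 15.5% lower), 3 of 10 for mature pit against pre-pit (2 higher and 1 lower, beside 10.4%, 6.52% higher and 3.84% lower) and 6 of 10 for neck against isthmus (5 higher and 1 lower, beside 50.7%, 26.4% higher and 24.3% lower). Median log2 fold changes of the members were 0.01, -0.17 and 0.24, beside 0.00, -0.02 and 0.06 over all genes. At the second pit step the count was 6 with the pool as a block, 5 without the low-count filter and 7 on plate sums.

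**Figure D2:**
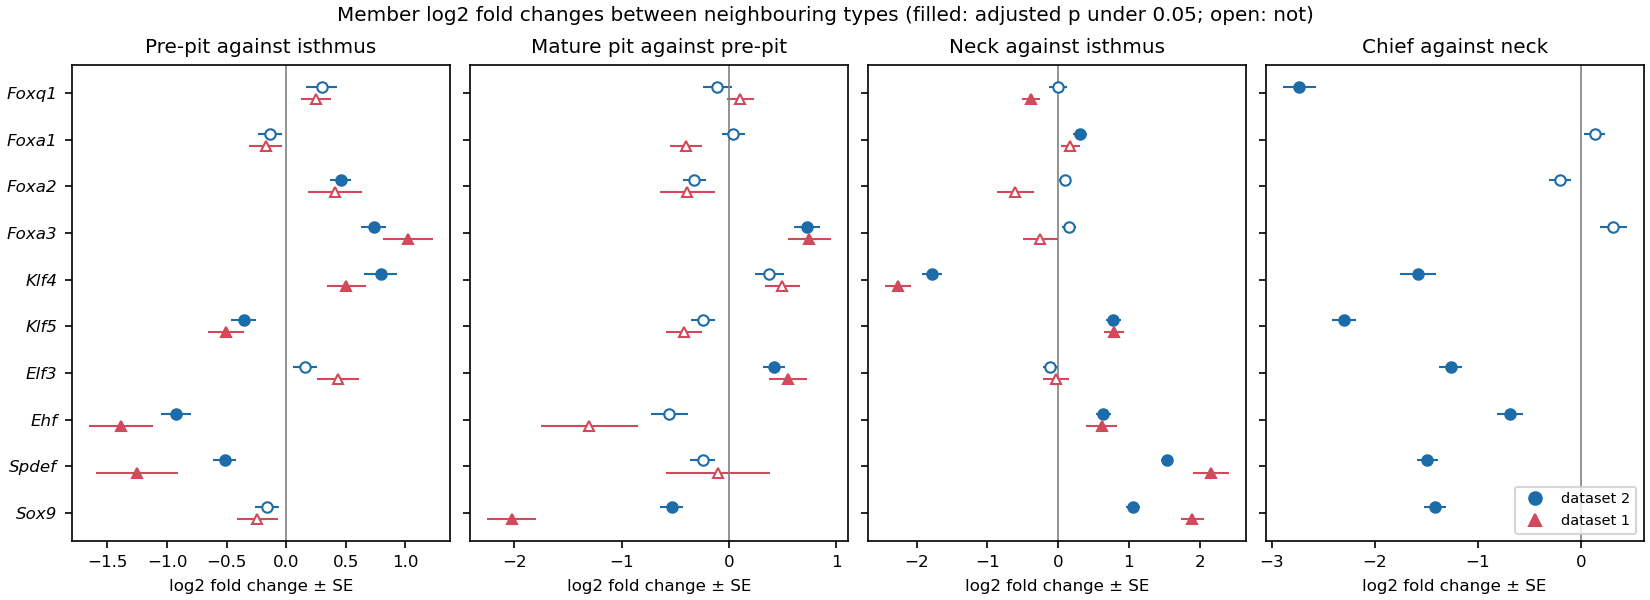
Log2 fold change with its standard error for each member at 4 steps between neighbouring types, for dataset 2 (circles) and dataset 1 (triangles, not drawn at the chief step), where a filled symbol passed an adjusted p of 0.05 and an open one did not. Spdef, Sox9, Klf5 and Ehf lie to the right at the neck step and Klf4 to the left in both datasets, and at the chief step 7 of 10 members lie to the left with filled symbols.

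Most members were lower in chief cells. Against neck cells 7 of 10 were lower and none higher, where 38.6% of genes tested were called, 19.9% lower and 18.6% higher, and the median was -1.34 against -0.07 over all genes. Foxq1 fell from 285 and 357 CPM in neck cells to 44.2 and 51.6 in chief cells (-2.73 ± 0.16, adjusted p = 2.1e-08), the largest fall of a member there. Klf5 was at 109.6 and 146 CPM in chief cells (-2.30 ± 0.12, adjusted p = 5.16e-09), and Klf4, Spdef, Sox9, Elf3 and Ehf changed by -1.58 ± 0.18, -1.49 ± 0.10, -1.42 ± 0.11, -1.27 ± 0.11 and -0.69 ± 0.13. The Klf4 value is against all neck clusters summed. Of these, clusters 7 and 12 were far lower in Klf4 than clusters 0 and 2, as given below, so it does not hold for each neck cluster. In level the FOXA factors were the exception. Foxa1 was at 354 and 328 CPM in chief cells, 0.13 ± 0.10 (adjusted p = 0.349) against neck, and Foxa2 was at 55.9 and 62.8, -0.20 ± 0.11 (adjusted p = 0.151). Neither of the 2 differences, nor that of Foxa3 given above, was called, which does not show that these levels are equal. For Foxa3 the call depended on the scaling, with adjusted p = 0.0347 under RLE size factors.

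The 4 neck clusters were not alike in Klf4. With levels scaled over all 20 clusters, Klf4 stood at 208 and 201 CPM in cluster 0, 127 and 127 in cluster 2, 23.8 and 26.2 in cluster 7 and 25.8 and 29.4 in cluster 12. Clusters 7 and 12 were thus at the level of the parietal cluster 1 (23.0 and 25.8). Spdef stood at 296 and 349, 287 and 301, 436 and 439 and 372 and 396 CPM in the same order, with cluster 7, the cluster highest in Muc6, at the top. The pools took different shares of these clusters, as cluster 0 gave 135 of 644 neck cells in pool K and 336 of 603 in pool T, and cluster 7 gave 174 and 82. Klf4 in the summed neck cells was 88.1 and 122 CPM in the 2 pools.

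Cluster 12 consists of neck cells rich in Cblif, the chief cell product gastric intrinsic factor, at 10439 CPM against 74.8 to 1176 in the other neck clusters. Against clusters 0, 2 and 7, 4 of 10 members were called, 1 higher and 3 lower, where 10.3% of 12922 genes tested were called, 5.12% higher and 5.17% lower. Klf4 (-1.61 ± 0.13, adjusted p = 3.83e-09), Foxq1 (-0.78 ± 0.12, adjusted p = 5.25e-05) and Elf3 (-0.60 ± 0.09, adjusted p = 5.84e-05) were lower, and all 3 fell in chief cells too. Ehf was higher (0.37 ± 0.10, adjusted p = 0.0162), a call that was lost without plate p10 of pool K (adjusted p = 0.0712) and without the low-count filter (adjusted p = 0.061). Klf5, Spdef and Sox9, which all fell in chief cells, were not called here, at -0.23 ± 0.09 (adjusted p = 0.142), 0.19 ± 0.13 (adjusted p = 0.428) and 0.19 ± 0.10 (adjusted p = 0.276). The Klf4 difference is from the mean of the 3 other clusters, of which cluster 7 stood as low as cluster 12.

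**Figure D3:**
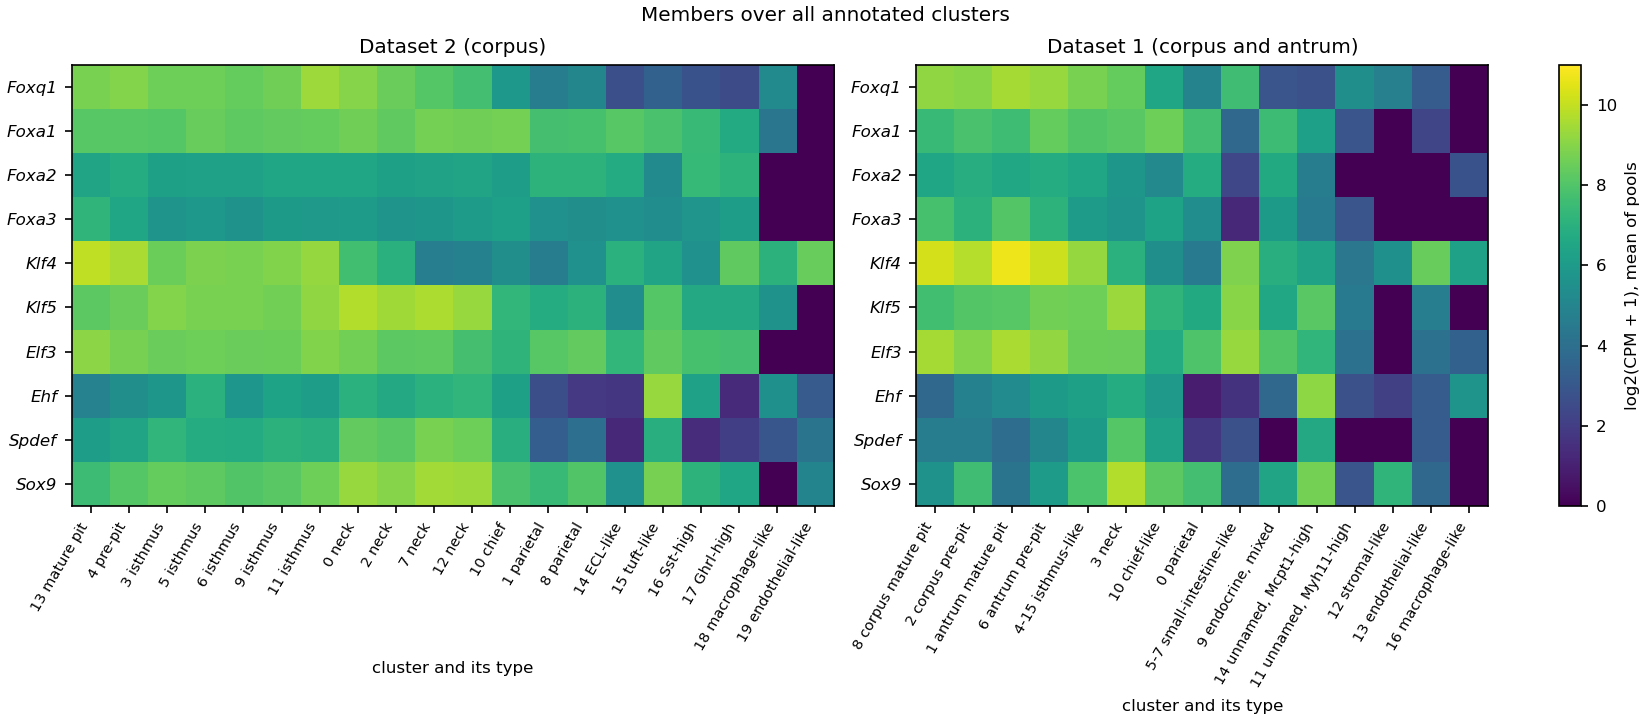
Mean level of each member over the pools, as log2(CPM + 1), in all 20 clusters of dataset 2 and all 15 of dataset 1, ordered by type. Colours compare clusters along a row and not genes between rows. Ehf is brightest in tuft-like cluster 15 of dataset 2, at 625 and 631 CPM, and Spdef and Sox9 in the neck clusters.

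Isthmus cells already differed by the mucin they carried. Of 1285 isthmus cells 580 carried Muc5ac only, 423 Muc6 only, 215 both and 67 neither, where carrying means more per 10000 UMIs than the 95th percentile of parietal cells, a class cut from a per-cell value and so a range and not a cell type. With 1 UMI as the limit the classes held 335, 242, 699 and 9 cells, and the same number of members, 7, was called. Cells with Muc5ac only against cells with Muc6 only gave 7 of 10 members called, 3 higher and 4 lower, where 28.3% of 12853 genes tested were called, 12.8% higher and 15.5% lower. Klf4 stood at 573 and 603 CPM in Muc5ac-only cells, 285 and 321 in cells with both and 152 and 176 in Muc6-only cells, on the scale of this fit, where neck cells were at 95.2 and 131 and pre-pit cells at 643 and 726. The difference was 1.84 ± 0.14 (adjusted p = 5.42e-08), a 3.59-fold change within the isthmus. Spdef ran from 60.1 and 71.6 CPM in Muc5ac-only to 127 and 128 in cells with both and 173 and 157 in Muc6-only cells (-1.32 ± 0.11, adjusted p = 1.67e-07). The Muc6-only cells thus lay between the Muc5ac-only cells and the neck cells (298 and 314) in both pools.

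The other calls kept the direction seen between pit and neck cells, where Foxq1 had not been called. Foxa3 (0.62 ± 0.12) and Foxq1 (0.44 ± 0.13) were higher in Muc5ac-only cells, and Sox9 (-0.65 ± 0.09), Ehf (-0.62 ± 0.10) and Klf5 (-0.58 ± 0.10) lower. With the pool as a block Foxa1, Foxa2 and Elf3 were called as well, at adjusted p = 0.0304, 0.0251 and 0.0458, with log2 fold changes of -0.22 ± 0.08, 0.28 ± 0.09 and 0.19 ± 0.07 in that fit. The split was repeated inside each of the 5 isthmus clusters in each pool, which gave 10 side-by-side values. These reuse the cells tested above and come from 2 pools, so they are not 10 replicates. The same count was not made for other genes. Klf4 and Foxq1 were higher in the Muc5ac-only cells in 10 of 10 and Foxa3 in 9 of 10, while Spdef, Sox9, Klf5, Ehf and Foxa1 were lower in 10 of 10. Foxa2 was higher in 7 and Elf3 in 6 of the 10. The dissociation genes summed to 4915 and 7341 CPM in Muc5ac-only and 5879 and 11422 in Muc6-only cells, lower in each pool where Klf4 was higher, and their part was not tested.

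**Figure D4:**
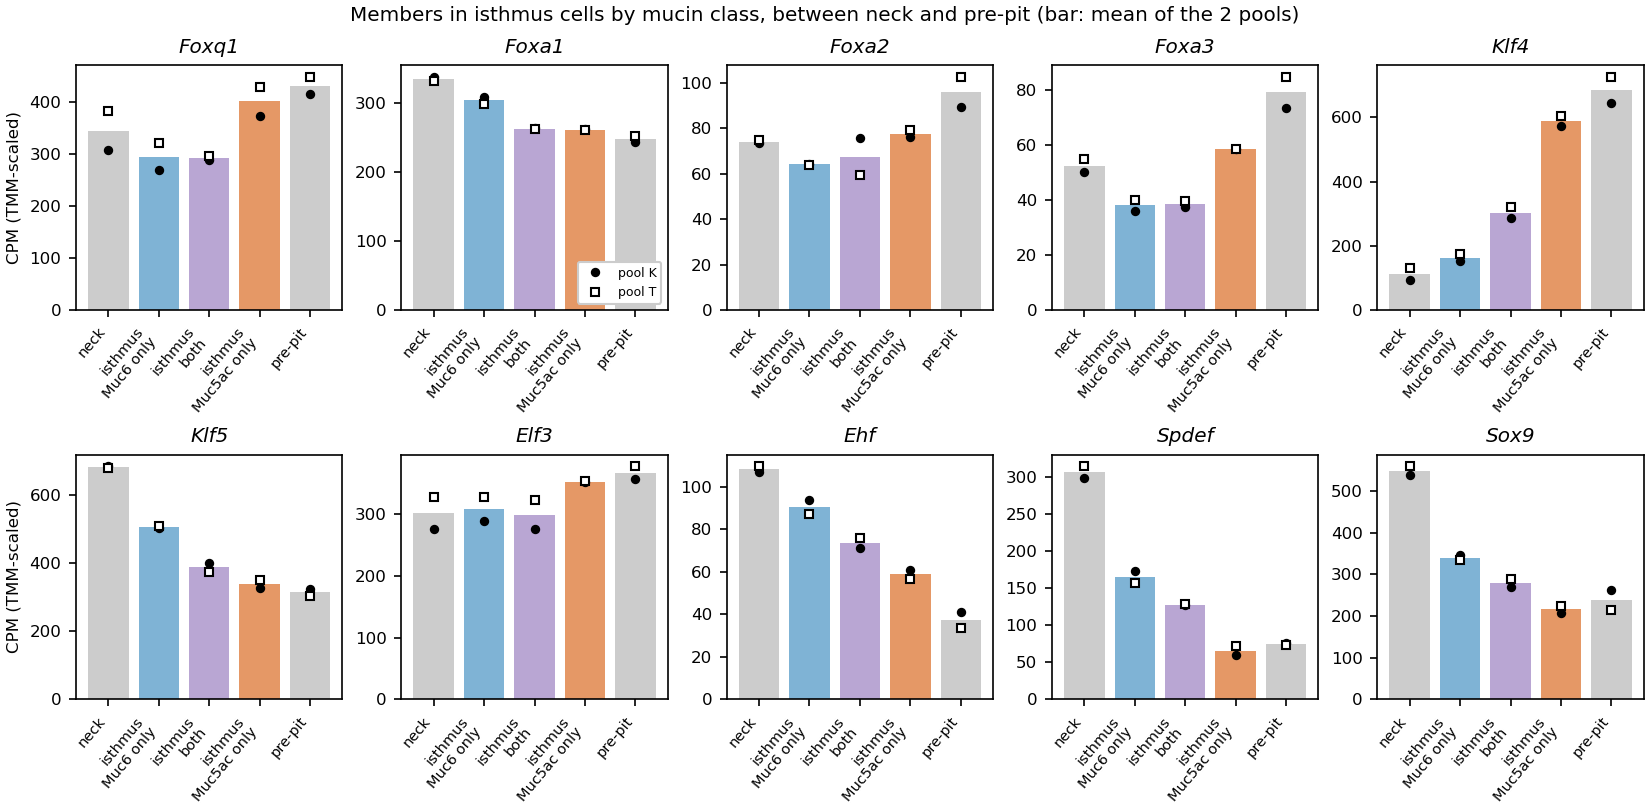
Level of each member (CPM) in isthmus cells of dataset 2 that carry Muc6 only, both mucins or Muc5ac only, with neck and pre-pit cells at the ends, where bars are means of the 2 pools and points the pools. Klf4 climbs from 152 and 176 CPM in Muc6-only to 573 and 603 in Muc5ac-only cells, and Spdef, Sox9, Klf5 and Ehf descend.

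The study's 5 isthmus clusters were separated by cell cycle phase. They were grouped here by Foxm1, which does not split dividing from non-dividing cells. Clusters 5 and 6, which are higher in the proliferation factor Foxm1 (3.88 ± 0.12 on the log2 scale), were set against clusters 3, 9 and 11, and 4 of 10 members were called (8 on plate sums), where 31.1% of 12922 genes tested were, 17.3% higher and 13.9% lower. Foxq1 (-0.39 ± 0.08, adjusted p = 0.000576), Spdef (-0.30 ± 0.10, adjusted p = 0.029) and Sox9 (-0.28 ± 0.08, adjusted p = 0.00771) were lower in clusters 5 and 6 and Ehf higher (0.27 ± 0.07, adjusted p = 0.00629). Ehf was uneven between those 2 clusters, at 134 and 127 CPM in cluster 5 and 52.0 and 55.9 in cluster 6. Klf4 was at 451 and 459 and 441 and 453 CPM in clusters 5 and 6 and 352 and 390.5, 473 and 499 and 631 and 594 in clusters 3, 9 and 11, a difference of -0.10 ± 0.06 (adjusted p = 0.21). Foxq1 was highest of all clusters of dataset 2 in isthmus cluster 11, at 635 and 713 CPM.

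Shares of cells with a UMI were compared after thinning each cell to 10000 UMIs, which left out 4 mature pit, 6 isthmus, 9 neck and 1 parietal cell with fewer, with Wilson 95% intervals that cover counting error only. Parietal cells, where the shares of Klf4, Spdef, Foxq1 and Ehf were low, give a share to read these members against. They do not serve so for others, as Elf3 was found in 78.3% and Foxa1 in 72.5% of parietal cells. A Klf4 UMI was found in 97.4% (92.7 to 99.1%) of mature pit, 83.9% (81.8 to 85.8%) of isthmus, 46.0% (43.2 to 48.7%) of neck, 17.2% (12.4 to 23.4%) of chief and 14.8% (12.4 to 17.7%) of parietal cells. The interval of chief cells overlapped that of parietal cells. For Spdef the shares were 92.8% (91.2 to 94.1%) of neck, 64.2% (61.5 to 66.8%) of isthmus, 52.2% (46.5 to 57.9%) of pre-pit, 33.3% (25.4 to 42.3%) of mature pit and 4.85% (3.49 to 6.70%) of parietal cells. Spdef in mature pit cells, though low, lay above the parietal share. Foxq1 fell from 87.6% (85.6 to 89.3%) of neck to 21.1% (15.8 to 27.6%) of chief cells, and Ehf from 68.8% (66.2 to 71.3%) to 32.2% (25.8 to 39.4%). The FOXA factors, not called by level at this step, also had lower shares in chief cells. Foxa1 went from 96.4% (95.3 to 97.3%) to 83.3% (77.2 to 88.1%) and Foxa2 from 51.1% (48.3 to 53.8%) to 27.8% (21.8 to 34.7%). Foxa3 went from 43.3% (40.6 to 46.1%) to 34.4% (27.9 to 41.6%), with overlapping intervals. Thinning goes by total UMIs, without the TMM scaling of the levels, and the reason for the contrast was not tested. Without thinning the Klf4 shares in isthmus, neck, chief and parietal cells were 94.7%, 63.0%, 35.6% and 35.8%, at median depths of 37426, 22530, 34844.5 and 47647 UMIs per cell.

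Klf4 and Spdef, a pair chosen after their values were seen, met in the same isthmus cells. At 10000 UMIs 50.9% of 1279 isthmus cells held both, where 53.9% would if the 2 were independent. Klf4 was found in 79.3% of the isthmus cells with Spdef and 92.1% of those without, at 78.6 and 91.7% in pool K and 79.9 and 92.5% in pool T. In neck cells the pair met in 42.4%, with 42.7% under independence, and in pre-pit cells in 50.9% against 50.8%. These are shares of cells with a molecule counted and do not say that a cell without one lacks the gene.

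**Figure D5:**
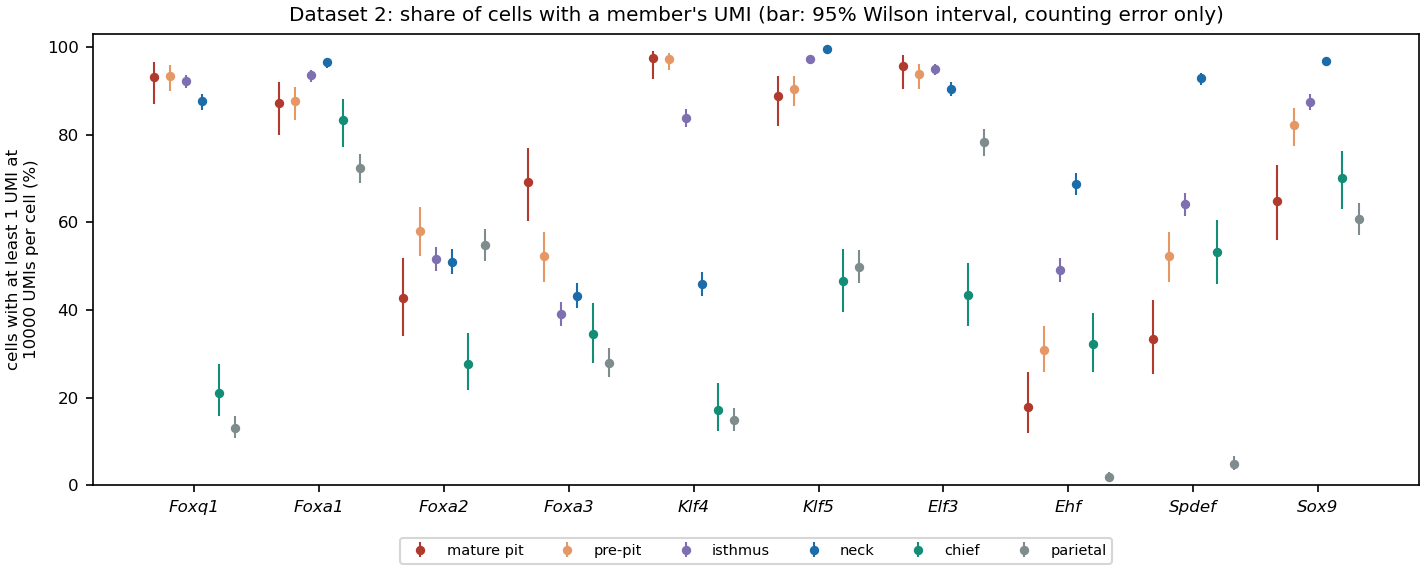
Share of cells (%) with at least 1 UMI of each member after thinning to 10000 UMIs, for 6 types of dataset 2, with Wilson 95% intervals for counting error. The share of Klf4 drops from 97.3% in pre-pit to 46.0% in neck cells while that of Spdef rises from 52.2% to 92.8%.

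Parietal cells, the acid-secreting lineage, set the members apart in a different way. All 10 were called against isthmus cells, 9 lower and 1 higher, where 71.8% of genes tested were called, 36.7% lower and 35.2% higher. Ehf (-4.33 ± 0.15), Foxq1 (-3.87 ± 0.15), Klf4 (-3.74 ± 0.15) and Spdef (-3.44 ± 0.11) fell most. Foxa2 was the member that rose, from 64.9 and 63.4 CPM in isthmus to 107 and 116 in parietal cells (0.80 ± 0.08, adjusted p = 1.14e-06). Foxa3, at -0.25 ± 0.10 (adjusted p = 0.0415), was not called by DESeq2 (adjusted p = 0.0706) or without any 1 of 4 plates, p11 and p13 of pool K and p06 and p08 of pool T (adjusted p = 0.0512 to 0.0558), and was -0.15 in pool K and -0.36 in pool T.

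Outside these lineages the members turned up in unlike places, given as levels with no test because the clusters are small. Ehf reached its highest level in tuft-like cells, chemosensory cells marked by Dclk1, Trpm5 and Pou2f3, at 625 and 631 CPM in cluster 15 of dataset 2 (32 cells), where neck cluster 12, the next highest, had 146 and 151. Sox9 was at 439.8 and 418 CPM in the same cells and Foxq1 at 7.72 and 11.7. In dataset 1 the cluster highest in Ehf was cluster 14 (12 cells), at 633 and 469.6 CPM. That cluster holds Trpm5 but is led by the mast cell genes Mcpt1 and Mcpt2 and so was left unnamed. Foxa2 was highest in dataset 2 in Sst-high cluster 16, at 206 and 121 CPM, with parietal cluster 8 (133 and 145) and Ghrl-high cluster 17 (127 and 151) next and the pools of all 3 overlapping. Klf4 was at 259.5 and 375 CPM in cluster 17 and, in endothelial-like cluster 19 (9 cells), at 520.1 and 174, from 26 and 11 UMIs. In the small-intestine-like cluster 5-7 of dataset 1 Klf4, Klf5 and Elf3 were at 593 and 331, 414 and 649 and 622 and 637 CPM, while Foxa1 was at 9.77 and 13.5. No UMI of Foxq1, Foxa1, Foxa2, Foxa3, Klf5 or Elf3 was counted in cluster 19. The median depths of clusters 14 of dataset 1 and 19 of dataset 2 were 6634.5 and 7819 UMIs per cell, against 38757 and 31020 over the datasets.

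Dataset 1 gave the corpus steps in a separate preparation, with 26 to 57 cells a type. The members called were 5 of 10 for corpus pre-pit against isthmus-like cells (2 higher and 3 lower, beside 20.4% of 10229 genes tested, 9.60% higher and 10.8% lower), 3 of 10 for corpus mature pit against pre-pit (2 higher and 1 lower, beside 12.9%, 7.08% higher and 5.86% lower) and 6 of 10 for neck against isthmus-like cells (4 higher and 2 lower, beside 29.3%, 13.1% higher and 16.2% lower). Klf4 stood at 566 and 533 CPM in isthmus-like, 785 and 773 in corpus pre-pit, 1184 and 1019.8 in corpus mature pit and 144 and 89.9 in neck cells, in the order of dataset 2. Neck against isthmus-like was -2.26 ± 0.19 (adjusted p = 7.07e-08). The first pit step was 0.50 ± 0.16 (adjusted p = 0.0343), lost under DESeq2 (adjusted p = 0.0834) and without plates p23, p24, p25 or p31 (adjusted p = 0.0542 to 0.144), and the second was 0.50 ± 0.16 (adjusted p = 0.0509), with adjusted p = 0.0473 under the pool block.

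At the first pit step Spdef (-1.25 ± 0.35, adjusted p = 0.0151), Ehf (-1.39 ± 0.27, adjusted p = 0.00107) and Klf5 (-0.51 ± 0.15, adjusted p = 0.023) fell, Klf5 not under DESeq2 or without plates p24 or p29 (adjusted p = 0.0668 to 0.0938). Foxa3 was again called at both pit steps, at 1.02 ± 0.21 (adjusted p = 0.00164) and 0.75 ± 0.20 (adjusted p = 0.0174), the latter lost without plate p23 (adjusted p = 0.0545). Elf3 was not called at the first step (0.43 ± 0.18, adjusted p = 0.0931, and 0.0434 with the pool as a block, from 0.09 in tube 1 and 0.81 in tube 2) and rose at the second (0.56 ± 0.18, adjusted p = 0.0452), a call lost under DESeq2 and without plates p23, p24, p29 or p30 (adjusted p = 0.0547 to 0.21). On the neck side Spdef (2.16 ± 0.25, adjusted p = 3.85e-06) and Sox9 (1.90 ± 0.16, adjusted p = 1.04e-07) rose, as did Klf5 (0.79 ± 0.15, adjusted p = 0.000508) and Ehf (0.61 ± 0.22, adjusted p = 0.0434). The Ehf call was lost under DESeq2 (adjusted p = 0.341) and without plates p25, p29 or p30 (adjusted p up to 0.246). Foxq1 was lower in neck cells here (-0.39 ± 0.13, adjusted p = 0.0321), also lost under DESeq2 and without plates p23, p25, p29 or p30 (adjusted p = 0.0586 to 0.418). Within tubes 1 and 2 alone the log2 values were uneven for Ehf at the neck step (0.29 and 0.89), Foxa3 (1.05 and 0.40) and Elf3 (0.79 and 0.32) at the second pit step, and Spdef at the first (-1.01 and -2.32).

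Sox9 was the member that fell from pre-pit to mature pit cells in dataset 1. It stood at 187.69 and 159.96 CPM in corpus pre-pit and 32.5 and 54.1 in corpus mature pit cells (-2.02 ± 0.23, adjusted p = 2.51e-05), from 25 and 38 UMIs in the latter. In dataset 2 the mature pit cells were at 159.9 and 143 CPM. The 2 datasets were scaled and tested apart, so this difference between them was not tested. With both corpus pit types against neck cells all 10 members were called in dataset 1, 5 higher and 5 lower (beside 41.9% of genes tested, 20.1% higher and 21.7% lower). The members called in dataset 2 had the same direction, and Foxq1 (0.69 ± 0.12) and Foxa2 (0.83 ± 0.25) were added on the pit side, Foxa2 not without plate p23 (adjusted p = 0.112). The Foxa2 value was 1.51 in tube 1 and 0.20 in tube 2.

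Pit cells of the antrum were compared in dataset 1 alone, where region is known from the cluster and its markers Krt7 and Krt20 (1879 and 1833 CPM summed in antrum mature pit against 137.7 and 76.9 in corpus mature pit cells). Antrum mature pit against antrum pre-pit cells gave 5 of 10 members called (2 higher and 3 lower, beside 14.0% of genes tested, 8.29% higher and 5.66% lower). Foxa3 rose from 142 and 106 to 234 and 234 CPM (0.89 ± 0.20, adjusted p = 0.00627) and Sox9 fell from 51.9 and 63.2 to 20.5 and 9.94 (-1.80 ± 0.31, adjusted p = 0.000767). Foxa1 fell too, from 298 and 304 to 165.32 and 169.05 CPM (-0.85 ± 0.14, adjusted p = 0.000699). Klf4 (0.50 ± 0.16, adjusted p = 0.0474) and Klf5 (-0.56 ± 0.16, adjusted p = 0.0221) were called, Klf4 not without any of plates p23, p24, p25, p29 and p31 (adjusted p = 0.0669 to 0.194) and Klf5 not without p24 or p29 (adjusted p = 0.124 and 0.279) or under DESeq2 (adjusted p = 0.0983).

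Corpus against antrum pit cells, both stages together, gave 5 of 10 (1 higher and 4 lower, beside 9.24% of genes tested, 3.75% higher and 5.48% lower). Sox9 was higher in the corpus, at 187.69 and 159.96 CPM in pre-pit cells against 51.9 and 63.2 in the antrum (1.51 ± 0.20, adjusted p = 3.96e-05 over both stages). Ehf was lower in the corpus (-1.41 ± 0.27, adjusted p = 0.00158), from 3 and 12 UMIs in corpus mature pit cells, and Klf5 was lower as well (-0.52 ± 0.11, adjusted p = 0.00593), a call lost without plate p24 (adjusted p = 0.0602). Klf4 (-0.39 ± 0.12, adjusted p = 0.0369) and Foxq1 (-0.31 ± 0.09, adjusted p = 0.0343) were lower in the corpus in the fit of all plates, but Klf4 lost its call without plates p23, p24, p29 or p31 and Foxq1 without each of the 6 plates in turn (adjusted p = 0.0555 to 0.231). Foxa1 was not called (-0.33 ± 0.10, adjusted p = 0.0587), and was with the pool as a block (adjusted p = 0.0461). A test of whether the maturation step itself differed between corpus and antrum called 0 of 10 members by edgeR and 0 by DESeq2, with 1 member at an unadjusted p under 0.05 (Foxa1) and 0.0293% of genes called, 0.00978% higher and 0.0196% lower (3 of 10229 by edgeR and 11 by DESeq2, with 620 at an unadjusted p under 0.05). The step of Klf4, for one, was 0.50 ± 0.16 in the corpus and 0.50 ± 0.16 in the antrum, with a difference of 0.00 ± 0.21.

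Other genes of the same families, and further factors of gastric or secretory cells, were read from lists beside the members. From 21 other forkhead genes 14 were tested in dataset 2, from 15 other KLF genes 12, from 23 other ETS genes 13, from 17 other SOX genes 6 and from 30 further factors 24. For pre-pit against isthmus, 0 forkhead genes rose and 1 fell, 2 KLF genes rose and 4 fell, 0 ETS genes rose and 4 fell, 1 SOX gene rose and 2 fell, and 4 further factors rose and 4 fell. Over all genes tested 12.3% rose and 15.5% fell at this step. The forkhead gene that fell was Foxm1, a factor of dividing cells, at 0.795 ± 0.367 against 38.3 ± 4.27 CPM (-5.61 ± 0.28 on the log2 scale).

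For mature pit against pre-pit cells no forkhead or KLF relative was called, and 1 ETS gene, Elf4, rose while the SOX gene Sox4 fell (-0.63 ± 0.16, adjusted p = 0.0509 without plate p06). Of all genes tested 6.52% rose and 3.84% fell. Elf4 stood at 52.6 ± 3.74 against 25.2 ± 2.90 CPM (1.06 ± 0.16), rose in the same comparison of dataset 1 (0.96 ± 0.25, with adjusted p = 0.0989 by DESeq2) and fell from isthmus to neck (-0.97 ± 0.13). Tcf23, a bHLH factor, had the largest rise of the further factors, 30.7 ± 11.99 against 3.84 ± 0.366 CPM (3.01 ± 0.35), and Creb3l4, an endoplasmic reticulum-bound factor, fell by 1.10 on the log2 scale.

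For neck against isthmus 6 forkhead genes rose and 2 fell, 3 KLF genes rose and 2 fell, 1 ETS gene rose and 2 fell, 4 SOX genes rose and 1 fell, and 8 further factors rose and 8 fell. Of all genes tested 26.4% rose and 24.3% fell. Klf15 (1.45 ± 0.15), Sox5 (1.40 ± 0.17) and Elk3 (1.18 ± 0.16) rose most in their families. For chief against neck 7 of 13 ETS relatives fell and none rose, and 11 of 24 further factors fell and 4 rose, beside 19.9% of all genes lower and 18.6% higher. Bhlha15, the secretory cell factor also known as MIST1, had the largest rise among the further factors, 344 ± 14.8 against 26.9 ± 7.21 CPM (3.68 ± 0.15), and Creb3l4 the largest fall among them, 44.9 ± 8.47 against 322 ± 11.8 CPM (-2.86 ± 0.17). Bhlha15 was also higher in neck cluster 12 (1.45 ± 0.18), where no SOX, ETS or KLF relative was called, beside 10.3% of all genes tested.

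Within the isthmus, Muc5ac-only against Muc6-only cells separated Creb3l4 (48.2 ± 0.272 against 202 ± 15.3 CPM, -2.07 ± 0.13) and Sox5 (-0.96 ± 0.20) on the Muc6 side from Klf3 (0.81 ± 0.14) and Sox13 (0.42 ± 0.10) on the Muc5ac side. Of the tested relatives 0 forkhead genes were higher in Muc5ac-only cells and 3 lower, 2 KLF higher and 1 lower, 2 ETS higher and 3 lower, 1 SOX higher and 2 lower, and of 22 further factors 4 higher and 5 lower. Over all genes tested 12.8% were higher and 15.5% lower. Between corpus and antrum pit cells the largest difference in these lists was that of Pdx1, a factor of the distal stomach and duodenum, at -3.88 ± 0.47.

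Genes whose level followed each member most closely over the 14 epithelial clusters of dataset 2 were listed by Pearson correlation of log2 CPM, as a description with no test, since clusters of a pool share mice and libraries. Klf4 was followed by Mucl3 (r = 0.980) and Kcnf1 (0.972), Spdef by Galnt3 (0.979) and Srgap3 (0.978), and Foxq1 by 1700025G04Rik (0.989) and Galnt6 (0.986). Galnt3 and Galnt6 encode enzymes that start mucin-type O-glycosylation. Klf5 was followed by Fgfr2 (0.981) and Tstd1 (0.980), Ehf by Sec16b (0.987) and Rflna (0.974), Sox9 by Pik3r1 (0.968) and Zfp266 (0.958), and Elf3 by Ahr (0.950) and Rab6a (0.939). For the FOXA factors the closest were Mylip and Arf4 for Foxa1 (0.936 each), Llgl2 (0.932) and Acadm (0.928) for Foxa2, and B3galt4 (0.936) and Atp8b1 (0.926) for Foxa3. Among the members themselves the closest pair was Ehf and Spdef (r = 0.933) and the most opposed pair Foxa2 and Ehf (r = -0.835), over the same 14 clusters.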

How the data were processed

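Single cells of mouse gastric units were sequenced by Quartz-Seq2 in 384-well plates, with a barcode per well and a unique molecular identifier (UMI) per molecule. Per the study's methods, the authors processed reads with Drop-seq tools and FASTX-Toolkit, aligned them with STAR to GRCm39 with GENCODE gene models, and clustered cells in Seurat. The submitters' processing notes give bcl2fastq 2.20.0.422. The counting strand is not given in the sources used here. The deposited count tables hold whole UMI counts per gene and well, and the deposited annotation gives each cell's cluster. Plates share the same 384 well barcodes by design. Cells were kept as the authors filtered them, and no doublet caller was run.

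Counts were summed per cell type and pool, giving 12 sums of 2165683 to 29539575 UMIs over 6 types in dataset 2 and 14 sums of 483675 to 2362300 over 7 types in dataset 1, so cells were not treated as replicates. Each fit used edgeR 4.0.16 (filterByExpr, TMM, glmQLFit, glmQLFTest, all types sharing 1 dispersion estimate, without the pool as a term). Single clusters (28 sums) and mucin classes of isthmus cells (18 sums) were fitted separately, so CPM scales differ between fits. Levels printed for single clusters were scaled by TMM over all clusters of a dataset, outside these fits. All 10 members passed the low-count filter in all 4 fits, and scripts were tested on simulated data. Alternatives were the pool as a block, DESeq2 1.42.0, RLE scaling, no low-count filter, plate sums, a stricter cell filter and leaving out each plate. Leaving out a whole pool gave log2 fold changes with no test. Named genes outside the members were, per list and comparison, those with the largest called rise and fall, where each pool of the type with more had to hold 10 UMIs or more, and for each member the 2 genes most correlated with it.

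All types in a pool were prepared from one suspension of mice, which pairs the sums by pool. Deviations of same-pool sums correlated at 0.0689 to 0.411 (median 0.132) over 15 type pairs in dataset 2, with 12 over 0.1, and over 0.1 in 0 of 21 pairs in dataset 1 (median 0.0245). The members and gene lists were chosen with earlier results of these data known.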

Additional observations from a re-analysis of the deposited data

Results flagged for a closer look

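Foxa2 had opposite signs for neck against isthmus cells (isthmus-like in dataset 1, not split by region) in the 2 datasets. It was called in neither by edgeR (adjusted p = 0.333 in dataset 2 and 0.0957 in dataset 1). In dataset 2 the log2 difference averaged 0.10, at 0.07 and 0.14 in pools K and T, and in dataset 1 it averaged -0.69, at -0.999 and -0.39 in tubes 1 and 2. Both pools of each dataset had the same sign, and the difference between the datasets was not tested. It was 1 of 40 pairs of effects looked at in this way.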

How the results depend on the processing

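No change of direction was found in a called result under any alternative. Of the members' values under alternatives other than leaving out a plate or a pool, 903 kept their side of the threshold, 51 passed it newly and 16 no longer passed. With each plate left out in turn, 28 passed it newly, 42 no longer passed and the rest kept their side. Values without a whole pool had no p-value, so only their direction was checked. For the named genes outside the members, 588 kept their call and 29 lost it, and with a plate left out 49 values lost it. Members called for mature pit against pre-pit in dataset 2 went from 3 to 5 without the low-count filter, 6 with the pool as a replicate block and 7 on plate sums, and for isthmus clusters 5 and 6 against 3, 9 and 11 from 4 to 8 on plate sums. In dataset 1 they went from 3 to 5 for corpus mature pit against pre-pit without the filter, and from 5 to 3 for corpus pre-pit against isthmus-like cells by DESeq2. The cause was not tested. The pool block changed no call of a member other than those given in the report. Foxa3 (chief against neck), Foxq1 and Foxa2 (pit against neck), Foxa2 (mucin classes), Klf4 (corpus mature pit) and Foxa1 (corpus against antrum) passed under RLE scaling.

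With each plate left out in turn, the members called in dataset 2 ranged over 6 to 6 for pre-pit against isthmus, 3 to 4 for mature pit against pre-pit, 6 to 6 for neck against isthmus, 7 to 8 for chief against neck, 8 to 9 for pit against neck, 9 to 10 for parietal against isthmus, 3 to 4 for cluster 12, 4 to 5 for clusters 5 and 6 and 7 to 8 for the mucin classes. In dataset 1 they ranged over 3 to 5, 1 to 5 and 4 to 7 for the corpus pre-pit, mature pit and neck steps, 9 to 10 for pit against neck, 3 to 5 for the antrum, 2 to 4 for corpus against antrum and 0 to 0 for the difference of the maturation steps. The count of 1 for corpus mature pit was without plate p23, and the counts of 2 and 3 for corpus against antrum without p24 and without p23 or p31. The counts of 3 for the antrum were without p24 or p29, and that for corpus pre-pit without p24.

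Over all genes, mature pit against pre-pit in dataset 2 went from 1439 to 2590 calls on plate sums. In dataset 1 DESeq2 made 863 calls against 2083 by edgeR for corpus pre-pit, 665 against 1323 for corpus mature pit, 1458 against 2996 for neck, 2832 against 4282 for pit against neck, 684 against 1427 for the antrum and 548 against 945 for corpus against antrum. Corpus mature pit had 812 calls without plate p23 and 791 without p25, and corpus against antrum 627 without p29. The difference of the maturation steps went from 3 to 11 by DESeq2, 97 without the filter and 12 with the block. With 2 pools a dataset the spread between pools is known poorly, and the 483675 UMIs of the smallest dataset 1 sum limit the low genes most.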
